A study of Mus musculus with 8 samples.

Results

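Type I interferon response genes, the genes that cells switch on when interferon alpha or beta binds its receptor, were followed in chronic stroke infarcts of aged mice. The members were 37 interferon-stimulated genes listed by name, of 46078 genes listed in each library, and were chosen with earlier results of these data known. All 37 were matched to an Ensembl gene and passed the filter on low counts that left 14736 genes for testing. Male C57BL/6J wild type mice aged 18 months underwent DH stroke, an occlusion of the distal middle cerebral artery combined with hypoxia. From week 1 after stroke they were injected subcutaneously 3 times per week for 6 weeks with 4 g/kg HPBCD (2-hydroxypropyl-β-cyclodextrin, a cyclic sugar that entraps lipids) or with the vehicle, PBS. The infarct was dissected by eye at 7 weeks, so each sample was a mixture of infiltrating cells, scar and whatever brain tissue came with it. There were 4 libraries of vehicle infarcts and 4 of HPBCD infarcts. The labels number the libraries within each group. The study's methods speak of data from individual mice, and each library is called an animal here. The labels do not name the mouse of a library, and p-values measure the spread between these libraries.

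Interferon binding activates the kinases Jak1 and Tyk2, which phosphorylate transcription factors. A complex that contains Stat2 and Irf9 then binds a short DNA element, the interferon-stimulated response element, in the promoters of the response genes. The products sense viral RNA, degrade it, block its translation or restrict viral budding, and Irf7 amplifies the production of interferon itself. In the brain the programme is known from infection, ageing and injury, where microglia, macrophages and astrocytes carry it.

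The libraries held between 16616909 and 32933164 counts assigned to genes. Levels are given as counts in each 1000000 counts of the library (CPM), with library sizes scaled by the trimmed mean of M values. The infarcts were uneven in their content of brain tissue. Summed over 9 neuron markers, vehicle animal 1 reached 1259 CPM and vehicle animal 3 reached 7120 CPM, against 70.3 to 93.4 in the other vehicle animals and 28.0 to 132 with HPBCD. Markers of B lymphocytes (8 genes, 149 to 554 CPM with vehicle and 48.3 to 136 with HPBCD) and of plasma cells (8 genes, 1256 to 2749 and 355 to 610 CPM) were lower with HPBCD. Those of foamy macrophages (8 genes, 6889 to 12311 and 15254 to 25029 CPM) and fibroblasts (7 genes, 2438 to 6146 and 8853 to 9485 CPM) were higher. The sum of macrophage and monocyte markers was also higher (9 genes, 6745 to 16305 and 16559 to 24187 CPM), but the single genes were mixed. By fold change 5 of them were lower and 4 higher, with a median log2 fold change of -0.008. At an unadjusted p under 0.05 in the edgeR test 2 were lower and 3 higher. Astrocyte (7 genes, 2166 to 8964 and 626 to 2485 CPM), oligodendrocyte (7 genes, 1515 to 4874 and 158 to 1936 CPM), microglia (8 genes, 895 to 1562 and 1070 to 1776 CPM) and plasmacytoid dendritic cell sums (8 genes, 677 to 830 and 540 to 708 CPM) overlapped between the groups. Of the astrocyte markers 5 of 7 had an unadjusted p under 0.05 in the edgeR test, all lower (71.4%, against 16% of all genes). By fold change all 7 were lower (median log2 fold change -1.36, and -1.04 without vehicle animals 1 and 3). The 7 oligodendrocyte markers were also all lower, but 0 of them reached that p. Endothelium sums (8 genes, 609 to 788 and 729 to 1182 CPM) overlapped too, with 4 of 8 at that p, all higher (50%, against 11.8%). Of the microglia markers 5 of 8 had an unadjusted p under 0.05 in the edgeR test, all lower (62.5%, against 16% of all genes). Of the plasmacytoid dendritic cell markers it was 4 of 7 tested, all lower (57.1%). Siglech is in both lists, so these 2 counts are not independent. No defining marker was at 0 in all libraries, and the part of these differences in the results below was not tested. In bulk tissue, fewer cells of a type and less RNA per cell cannot be told apart.

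Of the 37 interferon response genes, 1 fell past the threshold of the edgeR quasi-likelihood F test (adjusted p under 0.05, Benjamini-Hochberg over all genes tested) and 0 rose. The gene that fell was Rsad2, viperin, an enzyme that makes a chain-terminating nucleotide and blocks viral replication. Over all genes tested 0.774% were called lower and 1.17% higher. At an unadjusted p under 0.05, 11 members were lower (29.7% of them, against 16% of all genes) and 3 were higher (8.11% against 11.8%). The sign of the fold change was negative for 26 members and positive for 11 (70.3% negative, against 54.1% of all genes tested). The median log2 fold change of the members, HPBCD minus vehicle, was -0.29, and that of all genes tested was -0.05. It lay between -0.45 without HPBCD animal 3 and -0.11 without HPBCD animal 1. In 5 members every HPBCD value lay below every vehicle value (13.5%, against 7.95% of all genes): Rsad2, Cmpk2, Mx1, Mx2 and Ifit2. In 3 every HPBCD value lay above (8.11% against 8.85%): Gbp2, Lgals3bp and Ifi35. In the other 29 the groups overlapped. DESeq2, a second count test, called 7 members lower (11.1% of all genes it tested were lower): Rsad2, Mx1, Irf7, Cmpk2, Ifit2, Ifi27l2a and Oas3. It called 0 higher (5.92% of all genes). With edgeR, leaving out vehicle animal 3 gave 6 members called lower: Rsad2, Mx1, Ifit2, Ifi44, Herc6 and Trim30a (2.16% of all genes were called lower in that fit).

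**Figure D1:**
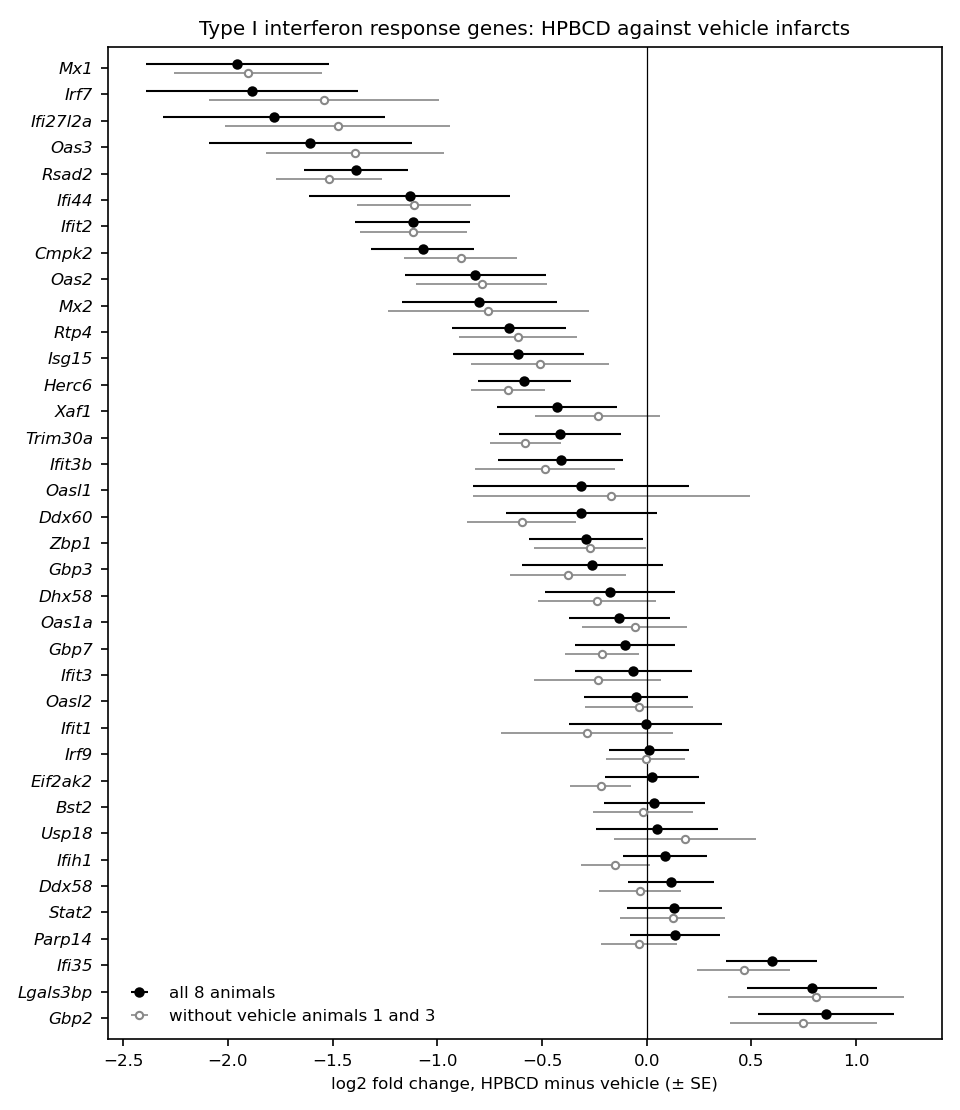
Log2 fold change (HPBCD minus vehicle) with its standard error for each of the 37 interferon response genes, from all 8 animals (filled) and without vehicle animals 1 and 3, those with high neuron markers (open). Mx1, Irf7, Ifi27l2a and Oas3 had the lowest values and Gbp2, Lgals3bp and Ifi35 the highest, and 14 genes lay within 0.2 of zero.

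The members did not move as a block: 14 of the 37 had a log2 fold change within 0.2 of zero, among them Ifit1, Usp18, Ddx58, Stat2 and Irf9, while 8 lay below -1. Promoter sequence was taken from RefSeq (GRCm38.p6) as 250 bases before to 50 bases after the gene start, and 28 of the 37 members had a window there. The letters GAAANNGAAA, the core of the interferon-stimulated response element, were searched on both strands. They occurred in 17 of these 28 members (60.7%) and in 3.99% of all genes with a window. The median log2 fold change was -0.10 in the 17 members with the letters and -0.43 in the 11 without them. The members that had no window are in neither median, and their log2 fold changes ran from -1.96 (Mx1) to 0.13 (Parp14). Only this exact spacing was searched, so a window without a match may hold a similar sequence. The difference between the medians was not tested. A match is a description of the letters and not a bound site. The windows shown are those of the called gene, of Ifit1 and Ifit2 on chromosome 19, and of the gene with the most matches. Ifit1 and Ifit2 had log2 fold changes of -0.0042 and -1.12, neither was called by edgeR, and the difference between them was not tested. Matched letters are in capitals (overlapping matches run together, and matches on the opposite strand read TTTCNNTTTC).
Rsad2 (chr12:26456403-26456702, minus strand): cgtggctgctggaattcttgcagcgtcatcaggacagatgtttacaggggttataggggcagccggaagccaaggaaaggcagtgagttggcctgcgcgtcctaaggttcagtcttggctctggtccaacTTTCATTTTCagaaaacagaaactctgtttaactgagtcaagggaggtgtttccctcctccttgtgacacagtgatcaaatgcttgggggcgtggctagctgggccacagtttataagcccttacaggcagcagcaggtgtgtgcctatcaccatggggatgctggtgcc
Ifit1 (chr19:34640639-34640938, plus strand): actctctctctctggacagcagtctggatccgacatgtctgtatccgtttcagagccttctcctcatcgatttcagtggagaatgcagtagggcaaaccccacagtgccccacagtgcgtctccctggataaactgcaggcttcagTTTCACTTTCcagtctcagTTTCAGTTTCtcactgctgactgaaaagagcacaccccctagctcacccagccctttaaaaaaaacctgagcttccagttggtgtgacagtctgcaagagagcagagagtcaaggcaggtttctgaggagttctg
Ifit2 (chr19:34550444-34550743, plus strand): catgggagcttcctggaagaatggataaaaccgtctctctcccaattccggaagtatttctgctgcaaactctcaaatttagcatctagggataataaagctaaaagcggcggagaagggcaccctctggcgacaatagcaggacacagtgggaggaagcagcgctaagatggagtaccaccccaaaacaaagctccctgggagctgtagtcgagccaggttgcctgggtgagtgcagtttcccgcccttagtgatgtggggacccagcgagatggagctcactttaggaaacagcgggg
Isg15 (chr4:156200769-156201068, minus strand): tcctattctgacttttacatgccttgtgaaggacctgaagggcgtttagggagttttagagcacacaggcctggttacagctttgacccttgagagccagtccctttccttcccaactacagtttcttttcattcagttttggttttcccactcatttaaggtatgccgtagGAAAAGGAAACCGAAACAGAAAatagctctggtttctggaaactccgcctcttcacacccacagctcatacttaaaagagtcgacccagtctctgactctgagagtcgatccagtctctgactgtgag
Rsad2 held 1 match that began 120 bases before the start. Ifit1 held 2, beginning 104 and 85 bases before it. Isg15 held 3 overlapping matches beginning 78 to 66 bases before its start. Ifit2 held none in either of its windows, and neither did Cmpk2 or Irf7. Mx1 and Mx2 were not among the genes with a window.

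Among the role groups, which were set by hand, the Mx and membrane effectors held the largest share of members whose groups did not overlap. These were 4 of 5, all lower (80%, against 7.95% of all genes), with Cmpk2 counted in this group. They are Rsad2 with its neighbour Cmpk2 and Mx1 with its neighbour Mx2, and genes of a pair may not be independent. The share depends on how the groups were set and was not tested. Rsad2 (chr12:26442746-26456452, minus strand) stood at 53.4, 70.2, 38.9 and 43.9 CPM in vehicle animals 1 to 4 and at 13.03, 24.5, 21.2 and 20.2 CPM in HPBCD animals 1 to 4. The highest HPBCD animal was below the lowest vehicle animal. The means were 51.6 ± 13.8 and 19.7 ± 4.83 CPM (SD, n = 4 each), a 2.62-fold lower level with HPBCD (log2 fold change -1.39, SE 0.25, edgeR adjusted p = 0.0483). The call lies at the threshold. It was kept by DESeq2 (adjusted p = 0.000117) and without vehicle animals 1 and 3 (0.0356). It was lost with scaling by library totals alone (0.0539) and when any of vehicle animals 1 or 4 or HPBCD animals 1 to 4 was left out (adjusted p 0.0544 to 0.172). In the fits without 1 of these animals the log2 fold change of Rsad2 was -1.50 to -1.23. Those fits called 0 to 353 genes among all genes tested.

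Cmpk2, a mitochondrial nucleotide kinase, is the neighbour of Rsad2 on chromosome 12 (chr12:26469204-26479837), transcribed from the opposite strand. Its values were 46.4, 37.4, 40.0 and 32.3 CPM with vehicle and 13.1, 19.7, 27.2 and 14.6 CPM with HPBCD. The groups did not overlap, and the log2 fold change was -1.07 (SE 0.25, adjusted p = 0.0599 by edgeR). The ratio of Rsad2 to Cmpk2 was 0.971 to 1.88 with vehicle and 0.781 to 1.39 with HPBCD, so that the pair kept overlapping proportions.

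Mx1 encodes a dynamin-like GTPase against influenza viruses, and the allele of common laboratory strains, C57BL/6 among them, is known to be defective in protein function. It had the largest fold change of all members. It stood at 14.2, 9.05, 4.03 and 8.43 CPM with vehicle and at 1.21, 2.02, 3.65 and 2.33 CPM with HPBCD (log2 fold change -1.96, SE 0.44, edgeR adjusted p = 0.0576). The gap between the groups was narrow, between vehicle animal 3 and HPBCD animal 3. Mx2, its neighbour on chromosome 16, was the least abundant member per kilobase of exon (0.372 CPM per kilobase) with 9 to 54 counts per library. It ranged from 1.503 to 1.97 CPM with vehicle and from 0.517 to 1.44 CPM with HPBCD, with an edgeR adjusted p of 0.198. Bst2, tetherin, which holds budding virus at the cell surface, was among the 5 most abundant members per kilobase (37.6 CPM per kilobase). Its values were 40.4, 39.6, 23.2 and 30.7 CPM with vehicle and 26.4, 33.9, 47.8 and 29.6 CPM with HPBCD, and the groups overlapped throughout. Its log2 fold change of 0.04 turned negative under other settings.

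**Figure D2:**
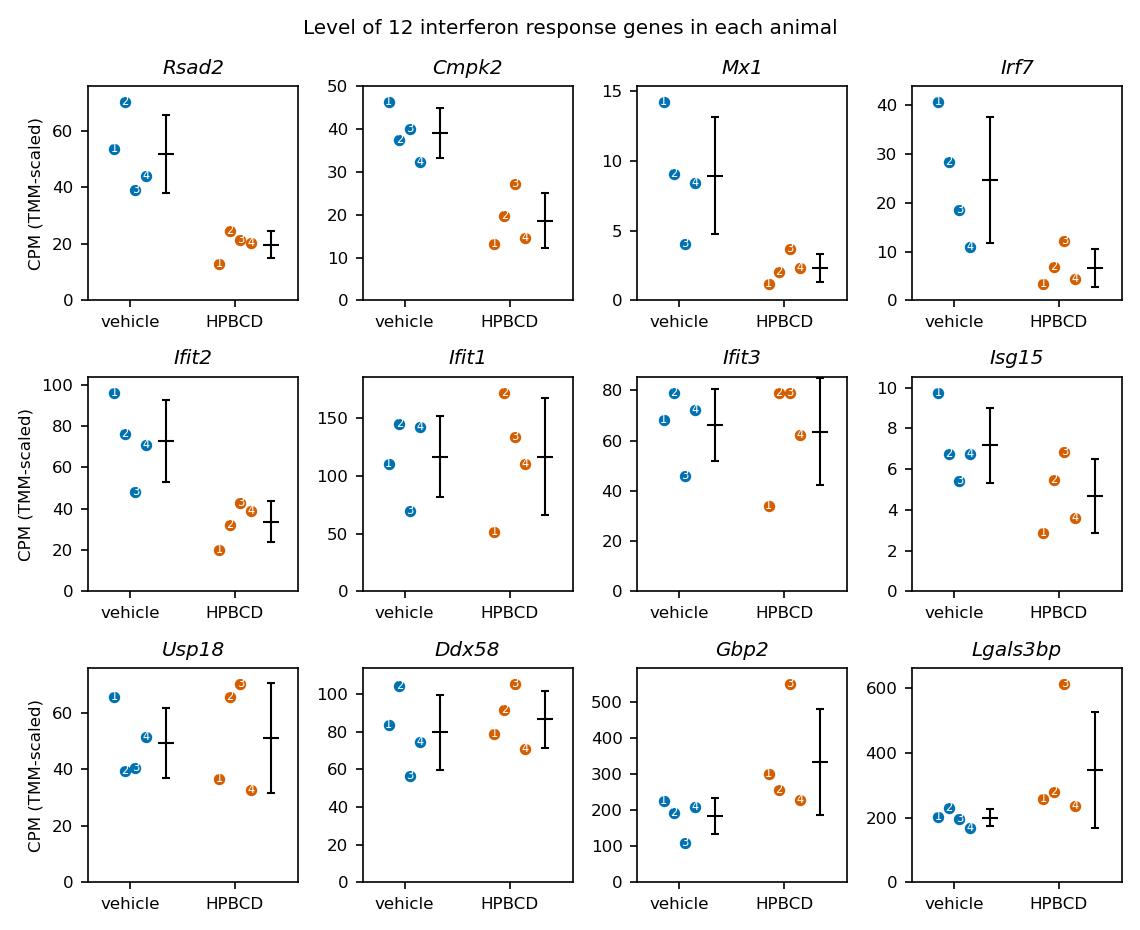
Level of 12 interferon response genes in each animal, in CPM on a linear axis from 0. Points carry the animal number and the bar beside them is the mean ± SD of 4 animals. Rsad2, Cmpk2, Mx1 and Ifit2 did not overlap between groups and were lower with HPBCD, Gbp2 and Lgals3bp did not overlap and were higher, and Ifit1, Ifit3, Usp18 and Ddx58 overlapped.

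The IFIT family, proteins that bind viral RNA lacking the host's cap modification, was split. Its 4 members lie together on chromosome 19. Ifit2 (chr19:34550694-34576419) was chosen for full values after they were seen. It stood at 96.1, 76.3, 48.0 and 70.8 CPM with vehicle and at 20.3, 32.3, 42.9 and 39.0 CPM with HPBCD. The groups did not overlap (log2 fold change -1.12, SE 0.28, edgeR adjusted p = 0.0643). Ifit1 (chr19:34640871-34650009) stood at 110, 145, 69.8 and 142 CPM with vehicle and at 51.3, 172, 133 and 110 CPM with HPBCD. Both the lowest and the highest of these 8 values were in the HPBCD group, and the log2 fold change was -0.0042 (SE 0.37, adjusted p = 0.995). Ifit3 was alike, at 68.1, 78.9, 46.0 and 72.1 CPM with vehicle and 34.04, 78.9, 79.0 and 62.3 CPM with HPBCD (log2 fold change -0.06, SE 0.28). Within each animal, the ratio of Ifit2 to Ifit1 was 0.500 to 0.872 with vehicle and 0.188 to 0.395 with HPBCD, and that of Ifit2 to Ifit3 was 0.967 to 1.41 and 0.410 to 0.627. Neither ratio overlapped between the groups. These ratios were chosen with the values known and carry no test. Ifit3b, a near copy of Ifit3 whose reads the counting could divide or drop, had a log2 fold change of -0.41 (adjusted p = 0.406).

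Isg15 is a ubiquitin-like protein that is attached to other proteins, Herc6 is the ligase that attaches it in mice, and Usp18 removes it and damps receptor signalling. Usp18, the most abundant of the 3 in CPM, stood at 65.8, 39.5, 40.5 and 51.6 CPM with vehicle and at 36.5, 65.6, 70.2 and 32.6 CPM with HPBCD. HPBCD animals 2 and 3 were high and animals 1 and 4 low, on either side of most vehicle values (log2 fold change 0.05, SE 0.29). Isg15 ranged from 5.41 to 9.75 CPM with vehicle and from 2.87 to 6.86 CPM with HPBCD, a log2 fold change of -0.61 (SE 0.31, adjusted p = 0.237). Herc6 had a log2 fold change of -0.58 (SE 0.22, unadjusted p = 0.028 by edgeR, adjusted p = 0.134), and 13.7% of its exon length is shared with an annotated gene on the same strand, Gm45193.

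Among the transcription factors, Irf7, Irf9 and Stat2, only Irf7 had an unadjusted p under 0.05 (edgeR, 0.00526). Irf7 stood at 40.6, 28.3, 18.5 and 10.9 CPM with vehicle and at 3.44, 6.80, 12.1 and 4.38 CPM with HPBCD. HPBCD animal 3 lay above vehicle animal 4, so that the groups overlapped by 1 animal (log2 fold change -1.88, SE 0.51, adjusted p = 0.0744). Irf9 stood at 56.9, 50.6, 36.0 and 46.8 CPM with vehicle and at 43.5, 48.2, 61.5 and 39.1 CPM with HPBCD, a log2 fold change of 0.01 (SE 0.19). Stat2, the other dedicated part of the complex, had a log2 fold change of 0.13 (SE 0.23). The values for these partners of the complex overlapped throughout.

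The OAS family makes a second messenger that activates RNase L on double-stranded RNA, and Eif2ak2 (PKR) halts translation on the same trigger. Oas3 ranged from 6.19 to 22.3 CPM with vehicle and from 2.01 to 7.08 CPM with HPBCD (log2 fold change -1.61, SE 0.49, adjusted p = 0.0878), and Oas2 had a log2 fold change of -0.82 (SE 0.34, adjusted p = 0.158). Their neighbour Oas1a, whose close copies in the same cluster could share reads, was at -0.13, with Oasl1 at -0.31 and Oasl2 at -0.05. Eif2ak2, the member of this group with the highest CPM, stood at 64.8, 83.8, 38.2 and 71.0 CPM with vehicle and at 55.8, 70.0, 68.1 and 69.5 CPM with HPBCD. HPBCD animals 2 to 4 lay close together within the vehicle range, and animal 1 lay lower but still above vehicle animal 3 (log2 fold change 0.03, SE 0.23).

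None of the 5 RNA and nucleic acid sensors reached an unadjusted p under 0.05 in the edgeR test, and the groups overlapped in all 5. Ddx58 encodes RIG-I, the sensor of uncapped viral RNA. It stood at 83.6, 104, 56.3 and 74.3 CPM with vehicle and at 78.7, 91.4, 105 and 70.8 CPM with HPBCD (log2 fold change 0.12, SE 0.21). The log2 fold changes of the others were 0.09 for Ifih1 (MDA5), -0.17 for Dhx58 (LGP2), -0.31 for Ddx60 and -0.29 for Zbp1, a sensor of Z-form nucleic acid that can trigger necroptosis.

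The guanylate-binding proteins, GTPases that attack the membranes of intracellular pathogens and that interferon gamma also induces strongly, were also split, and here the member whose groups did not overlap was higher with HPBCD. Gbp2 (chr3:142620602-142638008) was the most abundant member per kilobase of exon (103 CPM per kilobase). It stood at 225, 192, 111 and 209 CPM with vehicle and at 300.1, 256, 551 and 228 CPM with HPBCD. The groups did not overlap, by a narrow gap between vehicle animal 1 and HPBCD animal 4, and HPBCD animal 3 stood far above the rest (log2 fold change 0.85, SE 0.32, edgeR adjusted p = 0.132). Without that animal the log2 fold change was 0.51. Gbp3 and Gbp7, its neighbours on chromosome 3, had log2 fold changes of -0.26 (SE 0.34) and -0.10 (SE 0.24), and for Gbp7 11.4% of the exon length is shared with Gm43802 on the same strand.

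Lgals3bp, a secreted glycoprotein that binds galectins, was second per kilobase (96.1 CPM per kilobase). It stood at 203, 231, 196 and 170 CPM with vehicle and at 258, 278, 614 and 237 CPM with HPBCD. As for Gbp2, the groups did not overlap and HPBCD animal 3 was highest (log2 fold change 0.79, SE 0.31, edgeR adjusted p = 0.141). Without that animal the log2 fold change was 0.37. Ifi35, which binds other interferon-induced proteins, stood at 6.37, 6.67, 4.21 and 6.55 CPM with vehicle and at 9.59, 9.31, 10.5 and 6.77 CPM with HPBCD (log2 fold change 0.60, SE 0.22, adjusted p = 0.121). HPBCD animal 4 exceeded vehicle animal 2 only narrowly. In Ifi35, 16.8% of the exon length overlaps Gm11626 on the opposite strand, and the strand setting of the counting is not given in the sources used here.

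Ifi27l2a, a small mitochondrial protein, stood at 12.8, 8.79, 4.81 and 3.38 CPM with vehicle and at 1.55, 1.10, 4.18 and 1.83 CPM with HPBCD. Only HPBCD animal 3 reached into the vehicle range (log2 fold change -1.78, SE 0.53, edgeR adjusted p = 0.0852). Ifi44 had a log2 fold change of -1.13 (SE 0.48, adjusted p = 0.17, and -0.73 without vehicle animal 1) with a vehicle range of 9.68 to 56.0 CPM, and Rtp4 one of -0.66 (SE 0.27, adjusted p = 0.161), with 13.9% of its exon length shared with Gm45338. The remaining members of this group were Xaf1 at -0.43, Trim30a, which belongs to a family of close copies, at -0.41, and Parp14 at 0.13, each with overlapping groups.

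The members ranked the animals in a similar order within each group. Vehicle animal 1 was the highest of its group in 25 of 37 members (67.6%), against 13.1% of all genes tested. Vehicle animal 3 was the lowest in 31 (83.8%, against 39.5%), HPBCD animal 3 the highest in 29 (78.4%, against 31.6%) and HPBCD animal 1 the lowest in 26 (70.3%, against 20.9%). The median over the members of the log2 CPM, each centred on its mean over the 8 animals, was 0.55, 0.38, -0.36 and 0.11 in vehicle animals 1 to 4 and -0.62, -0.03, 0.29 and -0.27 in HPBCD animals 1 to 4. By this measure HPBCD animal 3 stood above vehicle animals 3 and 4, so the groups overlapped. The members share libraries and one pathway, so this is a description of the animals and not of 37 independent results. Vehicle animals 1 and 3, the highest and the lowest of their group, were also those with high neuron markers, and the part of the neuron content was not tested. HPBCD animal 3 also had the highest sum of T and NK lymphocyte markers (10 genes, 234 CPM against 96.4 to 149 in the other animals), of neutrophil markers (7 genes, 150.3 CPM against 66.6 to 101), of microglia markers (1776 CPM against 895 to 1562) and of foamy macrophage markers (25029 CPM against 6889 to 20397). Within its group it was also highest for neuron, astrocyte and oligodendrocyte markers. Their part in the order of the animals was not tested.

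**Figure D3:**
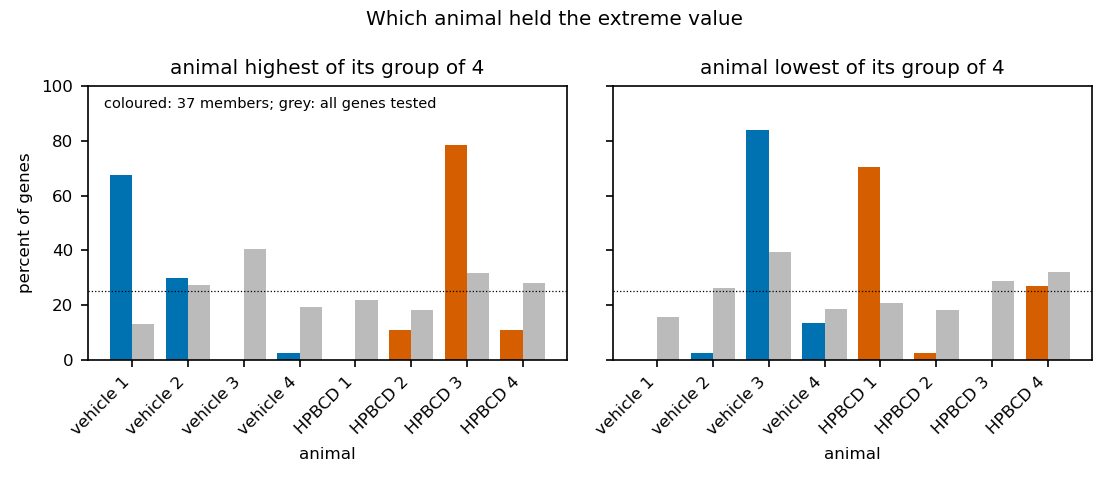
Percent of genes for which each animal held the highest (left) or lowest (right) CPM of its group of 4, for the 37 interferon response genes (coloured) and all genes tested (grey), with a dotted line at an equal share for 4 animals. Vehicle animal 1 and HPBCD animal 3 were highest, and vehicle animal 3 and HPBCD animal 1 lowest, in over 65% of the members.

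**Figure D4:**
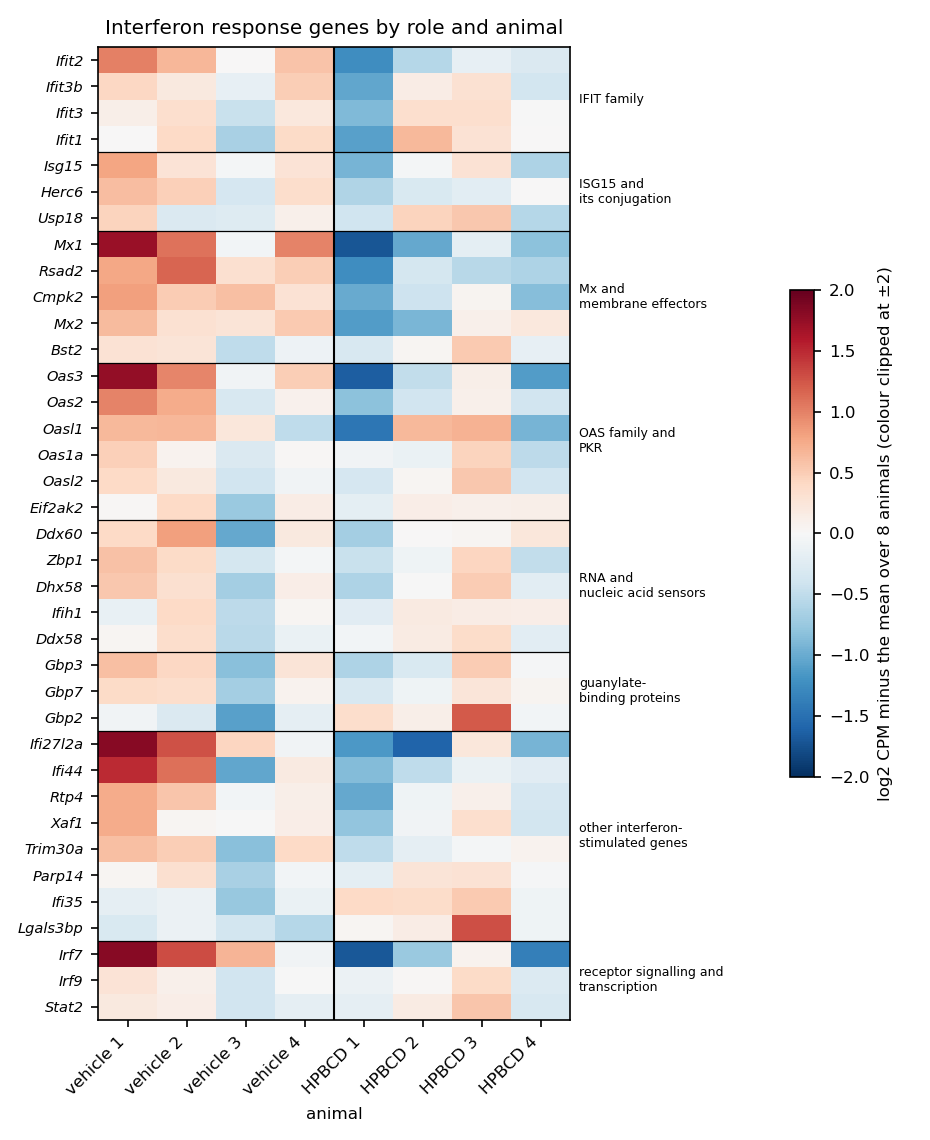
Log2 CPM of each interferon response gene in each animal, minus its mean over the 8 animals, with genes grouped by role and ordered by fold change. Colour runs from blue (lower) to red (higher). Mx1, Irf7, Oas3 and Ifi27l2a differed most between the groups, while rows such as Ifit1, Irf9 and Ddx58 showed no separation of the groups.

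Without vehicle animals 1 and 3, 6 animals remained and 32 members had a negative and 5 a positive log2 fold change. The share of negative signs over all genes was not counted for this fit. The median of the members was -0.27 and that of all 15066 genes then tested was 0.01. Rsad2 (log2 fold change -1.52, adjusted p = 0.0356) and Mx1 (log2 fold change -1.91, adjusted p = 0.0434) were called by edgeR (0.856% of all genes were called lower), and 12 members had an unadjusted p under 0.05 and were lower (9.48% of all genes). The 3 members that were higher without overlap, Gbp2, Lgals3bp and Ifi35, kept log2 fold changes of 0.75, 0.81 and 0.46, with adjusted p of 0.263, 0.31 and 0.265. The 6 members whose sign changed were Irf9, Ifih1, Ddx58, Bst2, Parp14 and Eif2ak2.

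The rest of the pathway was counted in lists chosen by name, also with earlier results of these data known. Of 20 type I and III interferon genes, 18 were listed at 0 counts in every library. Alignments that were not unique made up 18.6% to 23.6% of a library and were counted to no gene. A count of 0 may therefore miss reads shared between close copies. Ifnb1 reached 1 count and Ifnk 5 counts in a library, and 0 of the 20 passed the filter. The 7 receptor and kinase genes held 0 calls in the edgeR test, and 2 had an unadjusted p under 0.05, both higher (Ifnar2 and Il10rb, 28.6% of the list against 11.8% of all genes). The most abundant in CPM, Jak1 and Ifnar1, a chain of the type I receptor, had log2 fold changes of 0.12 (SE 0.15) and 0.04 (SE 0.18). None of the 15 genes of the sensing pathway upstream of interferon was called by edgeR, with 3 at an unadjusted p under 0.05, all higher (20% against 11.8% of all genes). Its most abundant genes were Tlr7, an endosomal sensor of single-stranded RNA, at 0.43 (SE 0.25), and Trim25, which activates RIG-I, at 0.40 (SE 0.21). DESeq2 called 1, Mavs, the mitochondrial adaptor of the RNA sensors, higher. Of the negative regulators 9 of 10 were tested and edgeR called 0, with 4 at an unadjusted p under 0.05, all higher: Socs1, Socs3, Trafd1 and Nlrx1 (44.4% against 11.8% of all genes). DESeq2 called Socs3 and Trafd1 higher. The most abundant of this list were Samhd1, which degrades nucleotides (0.19, SE 0.27), and Pias1, a SUMO ligase (-0.09, SE 0.16).

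Among 49 further interferon-stimulated genes, 47 were tested. edgeR called 0, with 8 lower (17.0%, against 16% of all genes) and 3 higher (6.38%, against 11.8%) at an unadjusted p under 0.05, and the median log2 fold change was -0.05, the same to this precision as that of all genes. The most abundant were Ly6e, a membrane-anchored factor that restricts coronaviruses (log2 fold change 0.88, SE 0.40, adjusted p = 0.187), and Nampt, an enzyme of NAD synthesis (0.24, SE 0.18). DESeq2 called 3 of them lower. These were Ifi213 (edgeR log2 fold change -2.46, SE 0.57, adjusted p = 0.0602), Ms4a4c (-1.76, SE 0.41, 0.0624) and Ifi209 (-1.30, SE 0.33, 0.0658). Ifi209 stood at 90.4, 78.3, 27.8 and 54.8 CPM with vehicle and at 22.1, 25.9, 29.7 and 24.7 CPM with HPBCD, where vehicle animal 3 fell among the HPBCD values.

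Of 21 genes of the interferon gamma arm 18 were tested and edgeR called 0, with 0 lower and 2 higher at an unadjusted p under 0.05 (Il18bp and Nos2, 11.1% against 11.8% of all genes). The median log2 fold change was 0.22, and 0.17 without vehicle animals 1 and 3. Il18bp, a secreted inhibitor of interleukin 18, stood at 93.6, 134, 102 and 136 CPM with vehicle and at 225, 229, 422 and 209 CPM with HPBCD. The groups did not overlap and HPBCD animal 3 was again highest (log2 fold change 1.22, SE 0.26, edgeR adjusted p = 0.0516, called higher by DESeq2). Ifngr1, a receptor chain, was next in CPM (0.11, SE 0.22). Ifng itself did not pass the filter, and its level was 0.05 to 0.24 CPM with vehicle, 0.17 to 0.34 CPM in HPBCD animals 1, 2 and 4, and 1.13 CPM in HPBCD animal 3, from at most 21 counts.

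**Figure D5:**
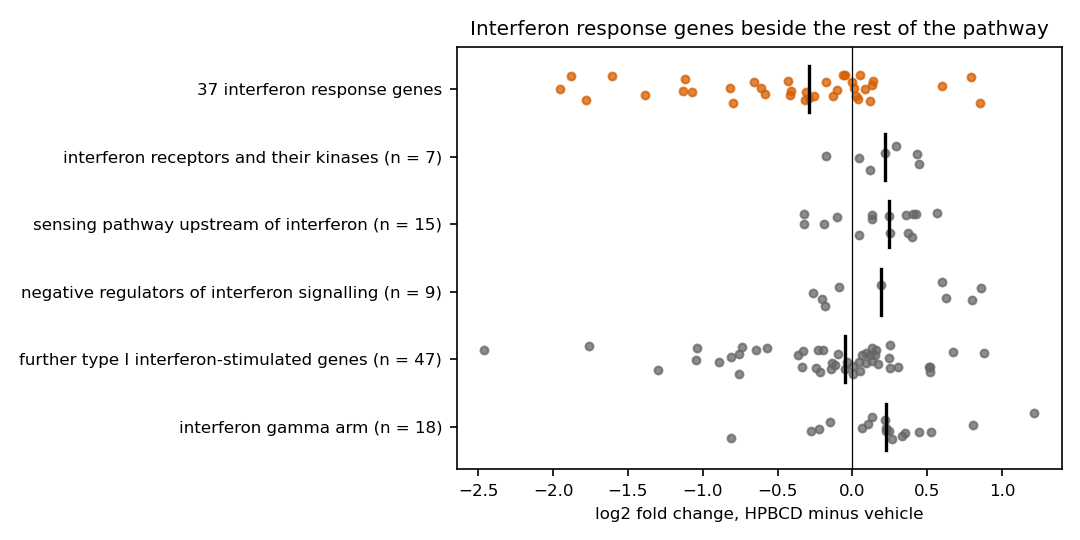
Log2 fold change (HPBCD minus vehicle) of every tested gene in the 37 interferon response genes and in 5 lists of the rest of the pathway, 1 point a gene, with a bar at each median. The medians were -0.29 for the response genes, 0.22, 0.25, 0.19 and -0.05 for receptors, sensing, negative regulators and further stimulated genes, and 0.22 for the gamma arm. Without vehicle animals 1 and 3 (not drawn) the median of the response genes was -0.27. In that fit receptors were at -0.003, sensing at 0.03, negative regulators at 0.10, further stimulated genes at -0.11 and the gamma arm at 0.17.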

How the data were processed

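The authors deposited raw read counts per Ensembl gene for 8 infarct libraries. Per the study's methods and the submitters' processing notes, stranded mRNA libraries were sequenced as paired ends, demultiplexed with bcl2fastq 2.19, trimmed with Trimmomatic 0.32, aligned to GRCm38 with STAR 2.5.2b and counted with HTSeq, and tested with DESeq2. The annotation release and strand setting of the counting are not given in the sources used here. Lines that name no gene held 26.6% to 36.6% of a library and were left out. Total gene counts ran from 16616909 to 32933164 and set the counting precision.

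Gene symbols matched 45143 of 46078 IDs. Positions and exon lengths came from GENCODE M21 (GRCm38). HPBCD was compared with vehicle in edgeR 4.0.16 (R 4.3.3) with filtering by group, TMM scaling, a robust quasi-likelihood fit and Benjamini-Hochberg adjustment over 14736 genes. CPM used the same scaling, and centred log2 values a prior count of 2. On simulated counts of this design with 200 genes changed, 78.5% of genes changed 4-fold and 0% of genes changed 2-fold were recovered. Alternatives were DESeq2 1.42.0, limma-voom with quality weights (limma 3.58.1), other scaling, no filter, a replicate block and leaving out libraries.

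The members and lists were chosen with earlier results of these data known. All members are named. Values per animal are given for called members, the 3 smallest p-values and the 3 largest fold changes in each direction, the 5 highest levels per kilobase and the highest CPM in each role. Other lists name called genes and, by fold change, the 2 with the highest CPM. Other pathway genes named, and values given for Ifit2, Ifi209, Il18bp and Ifng, were chosen after their values were seen.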

Additional observations from a re-analysis of the deposited data

Results flagged for a closer look

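In each of the 74 sets of 4 values (37 genes in both groups), the gap between the most extreme animal and its neighbour was compared with Dixon's critical value, and 5 exceeded it. Chance flags about 1 in 20 such sets, here 3.7. Values are log2 CPM. In HPBCD animal 1, Ifih1 was at 5.58, with the other HPBCD animals at 5.94 to 5.99, and Eif2ak2 was at 5.80, with the others at 6.09 to 6.13. In vehicle animal 3, the animal with the highest neuron markers, Trim30a was at 5.95, with the others at 7.195 to 7.39, and Ifi35 was at 2.11, with the others at 2.69 to 2.76. In HPBCD animal 3, Lgals3bp was at 9.26, with the others at 7.89 to 8.12.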

How the results depend on the processing

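Across 15 alternatives 24 of the 37 members kept the direction of their fold change and 13 did not, each of them within 0.2 of zero with all animals. The number of members called lower was 1 with edgeR, 7 with DESeq2, 12 with limma-voom and quality weights, 2 without a filter, 2 without vehicle animals 1 and 3, 0 with library totals alone and 0 with the replicate block. It was 0 to 6 when single libraries were left out (6 without vehicle 3). Members called higher numbered 0, except 1 with limma-voom, and 0 to 0 when single libraries were left out. Pathway genes called lower went from 0 to 3 with DESeq2, 12 with limma-voom, 2 without vehicle animals 1 and 3 and 0 to 3 when single libraries were left out. Those called higher went from 0 to 4, 7 and, without a filter, 1. The cause was not tested. Calls over all genes also moved, from 0 to 629 without a single library, 2899 with DESeq2, 3253 of 14736 with limma-voom and 9 with the replicate block. The median of the members stayed between -0.45 and -0.11. It was -0.12 without vehicle 1, -0.17 without vehicle 2, -0.11 without HPBCD 1, -0.45 without HPBCD 3 and -0.17 without HPBCD 4. Library totals alone moved the median of all genes to -0.13 and that of the members to -0.39.

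Log2 fold changes that changed sign were as follows. With DESeq2 and without a filter Ifit1 was 0.011 and 0.022. With limma-voom Irf9 was -0.059, Ifih1 -0.030, Bst2 -0.081 and Eif2ak2 -0.13. With library totals alone Irf9 was -0.086, Usp18 -0.048, Ifih1 -0.0088, Bst2 -0.064 and Eif2ak2 -0.072. Without vehicle animals 1 and 3 Irf9 was -0.0052, Ifih1 -0.15, Ddx58 -0.032, Bst2 -0.017, Parp14 -0.037 and Eif2ak2 -0.22. With single libraries left out, the ranges were -0.25 to 0.25 for Ifit1, -0.20 to 0.15 for Ifit3, -0.13 to 0.12 for Irf9, -0.059 to 0.26 for Stat2, -0.33 to 0.034 for Oas1a, -0.28 to 0.089 for Oasl2, -0.14 to 0.23 for Usp18, -0.047 to 0.26 for Ifih1, -0.015 to 0.28 for Ddx58, -0.16 to 0.15 for Bst2, -0.019 to 0.29 for Parp14, -0.29 to 0.019 for Gbp7 and -0.15 to 0.18 for Eif2ak2.

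The labels number the libraries of both groups, and same-numbered libraries deviated from their group means with correlations of -0.26, 0.24, 0.33 and 0.10. Differently numbered libraries were not compared in this way. These values therefore cannot decide whether same-numbered libraries share more than a number. With the replicate block Rsad2 had a log2 fold change of -1.39 and an edgeR adjusted p of 0.0836, and with library totals alone 0.0539. The animal order within groups was close to unchanged under both other scalings (vehicle 3 lowest in 31 or 32 members). The alternatives for the animal order and the pathway lists were added after seeing the data. In simulated counts of this design, with 200 of 14736 genes changed, 0% of 2-fold changes were recovered, so changes of that size may be missed. Other numbers of changed genes were not simulated, and recovery may differ with them.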
